A study of Mus musculus with 8 samples.

Results

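The promoters of 9 mouse genes that serve glucose sensing and hormone secretion in the pancreatic beta cell were followed by H3K4me3 ChIP-Seq, of 26225 genes annotated in all. The 9 genes were listed by their function, with no threshold on their values: Slc2a2, Abcc8, Kcnj11 and G6pc2, which act in glucose sensing, and Pcsk1, Pcsk2, Slc30a8, Chga and Chgb, which act in or are carried by the secretory granule. Chromatin came from 4 kinds of cells: wild-type (wt) mouse embryonic stem cells (mESCs, line TC-1), Men1-ko or menin-null mESCs (line 3.2N), and the pancreatic islet-like endocrine cells (PILECs) that each line yielded on differentiation in vitro. Both lines have the genetic background 129S6/SvEvTac and were freed of feeder cells before use, and each genotype is 1 line, so that line and genotype cannot be told apart. A single H3K4me3 library and a single input library were made from each, 8 in all and without replicates. No test between conditions was run and no p-values are given.

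The beta cell takes up glucose through the transporter GLUT2, the product of Slc2a2, and the ATP made from it closes the KATP channel, built of SUR1 (Abcc8) and Kir6.2 (Kcnj11), so that the membrane depolarises and insulin granules are released. In the granule the prohormone convertases PC1/3 (Pcsk1) and PC2 (Pcsk2) cut proinsulin, the transporter ZnT8 (Slc30a8) loads zinc, and the chromogranins A and B (Chga, Chgb) are stored with the hormone; convertases and chromogranins are also used by neurons and other endocrine cells. H3K4me3 is placed at active and poised promoters by complexes of the MLL family, some of which contain menin, and it is known to accumulate at CpG-rich promoters even where a gene is silent.

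Read positions (tags) were counted within 1 kb on each side of the transcription start site (TSS) and given as RPM, the count divided by all tags of the library and multiplied by 1000000. The H3K4me3 libraries held 2432377 to 3517028 tags in mESCs and 17682677 to 18773635 in PILECs, and between 40.1% and 51.4% of these lay within 1 kb of a TSS, against 4.73% to 7.57% of input tags. A 95% interval is that of counting error alone (exact binomial for a ratio or a share, Poisson for a level), and fewer cells carrying the mark cannot be told apart from less mark per cell. A promoter was called marked where H3K4me3 stood 2-fold or more over the input of the same cells with 1 tag added to each count, with an interval above 1. Over exons 3 to 8 of Men1, the targeted gene, input held 17 tags in wt mESCs and 22 in wt PILECs but 0 in both menin-null inputs, where a count of 0 allows up to 3 tags. H3K4me3 held 24 tags there in wt PILECs and 0 in both menin-null libraries, but also 0 in wt mESCs, where the rate of wt PILECs would give 3.11 tags. The wt genotype of the H3K4me3 library labelled wt mESCs, which every ratio to wt mESCs below uses, was thus not shown by its own tags. The promoters of the islet hormones Ins1, Ins2, Gcg, Sst, Iapp and Ppy, which define the cells that PILECs are named after, lacked the mark in PILECs. In either kind 0 of 6 were marked. Levels were 0.213 to 1.28 RPM (summed 4.05 RPM) in wt and 0.339 to 1.24 RPM (summed 4.35 RPM) in menin-null PILECs. By RT-PCR the authors reported low to moderate transcripts of Ins1, Ins2, Gluc and Iapp in both kinds of PILECs. They also reported C-peptide staining in both, and by western blot a similar rise of NeuroD1 protein when either kind of mESCs was differentiated. Of 13 islet transcription factor genes 11 were marked in both kinds of PILECs as were 12 in wt and 10 in menin-null mESCs, where 55.2% to 55.8% of all genes were marked in each kind of cells. Pdx1 and Pax4 were those unmarked in PILECs. The median log2 ratio of the 13 in PILECs over mESCs was -0.84 in wt cells against -0.14 over all genes, with 1 gene 2-fold higher and 5 lower where 6.66% and 20.4% of all genes were. In menin-null cells 12 had at least 10 tags, with a median of -0.75 against -0.33, and 0 were higher and 5 lower where 7.82% and 22.7% were.

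The promoters that the results turn on are shown, first 5 that carried the mark, in the order of the CpG content of the 2 kb around them, and then 2 that did not. Each is the 250 bases before the first annotated start of a protein-coding transcript, read 5′ to 3′ on the strand of the gene from build NCBIM37 (mm9), and CG dinucleotides are in capitals. Pcsk2 lies at chr2:143371642-143371891 (+ strand), Abcc8 at chr7:53435404-53435653 (− strand), Chgb at chr2:132606764-132607013 (+), Pcsk1 at chr13:75227024-75227273 (+), Chga at chr12:103792929-103793178 (+), Slc2a2 at chr3:28596575-28596824 (+) and Slc30a8 at chr15:52126858-52127107 (+).
Pcsk2: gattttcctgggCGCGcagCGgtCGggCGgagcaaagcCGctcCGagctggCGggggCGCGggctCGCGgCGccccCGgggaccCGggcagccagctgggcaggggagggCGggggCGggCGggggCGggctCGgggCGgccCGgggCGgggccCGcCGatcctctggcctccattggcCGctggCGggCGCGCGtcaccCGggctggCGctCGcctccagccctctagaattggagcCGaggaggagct
Abcc8: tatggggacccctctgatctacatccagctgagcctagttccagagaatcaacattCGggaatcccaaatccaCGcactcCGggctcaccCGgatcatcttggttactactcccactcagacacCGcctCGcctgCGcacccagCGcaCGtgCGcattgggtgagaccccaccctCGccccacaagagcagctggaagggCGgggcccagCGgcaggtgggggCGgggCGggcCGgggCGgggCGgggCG
Chgb: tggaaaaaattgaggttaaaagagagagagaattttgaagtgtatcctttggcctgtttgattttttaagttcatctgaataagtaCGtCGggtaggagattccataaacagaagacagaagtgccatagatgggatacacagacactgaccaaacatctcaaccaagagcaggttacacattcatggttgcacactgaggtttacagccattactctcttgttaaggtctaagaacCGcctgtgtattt
Pcsk1: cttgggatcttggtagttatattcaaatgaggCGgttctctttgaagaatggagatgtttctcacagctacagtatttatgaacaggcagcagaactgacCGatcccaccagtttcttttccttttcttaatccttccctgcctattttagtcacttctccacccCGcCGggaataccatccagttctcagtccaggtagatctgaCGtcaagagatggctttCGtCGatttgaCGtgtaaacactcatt
Chga: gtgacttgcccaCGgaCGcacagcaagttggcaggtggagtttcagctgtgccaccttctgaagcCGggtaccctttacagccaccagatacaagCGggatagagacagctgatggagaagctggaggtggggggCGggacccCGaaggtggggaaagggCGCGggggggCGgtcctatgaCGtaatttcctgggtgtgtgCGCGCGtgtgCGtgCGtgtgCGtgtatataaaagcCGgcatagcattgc
Slc2a2: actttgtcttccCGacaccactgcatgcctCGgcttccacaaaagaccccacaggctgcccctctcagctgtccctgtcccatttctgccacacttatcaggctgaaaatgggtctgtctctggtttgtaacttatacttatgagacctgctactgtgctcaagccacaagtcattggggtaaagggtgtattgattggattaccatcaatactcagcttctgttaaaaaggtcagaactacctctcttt
Slc30a8: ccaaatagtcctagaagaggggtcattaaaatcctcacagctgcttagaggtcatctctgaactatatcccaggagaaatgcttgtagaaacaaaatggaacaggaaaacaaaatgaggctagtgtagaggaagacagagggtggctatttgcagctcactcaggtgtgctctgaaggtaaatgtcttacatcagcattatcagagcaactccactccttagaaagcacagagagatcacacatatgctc
The 250 bases held 34 CG in Pcsk2, 19 in Abcc8, 17 in Chga, 8 in Pcsk1, 3 in Chgb, 2 in Slc2a2 and 0 in Slc30a8, against a median of 9 over 22372 promoters of protein-coding genes. The promoters of Kcnj11 and G6pc2, not shown, held 10 and 4. The letters of 4 motifs were searched on both strands. The TATA box letters TATAAA, found in 12.3% of all these promoters, were in that of Chga, with the first base 23 bases before the start. The cAMP response element TGACGTCA, found in 1.94%, was in that of Pcsk1, 47 bases before that start. Its shorter form TGACG, found in 19.4%, was in those of Chga (72 bases before), Pcsk2 (57 bases before) and Pcsk1, which had 3 matches, 2 of them inside its full element. The letters CAGCACC, a part of the REST element and present in 5.19%, were in the promoter of Kcnj11 alone among the 9. A match is a description of letters and not of a bound site.

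By the call over input within 1 kb the 9 promoters fell into the same groups in each kind of cells. Chga, Chgb, Pcsk1, Pcsk2, Abcc8 and Kcnj11 were marked in all 4, and Slc2a2, G6pc2 and Slc30a8 in none. So 6 of 9 were marked in each, where of all genes 55.7% (wt) and 55.8% (menin-null) were marked in mESCs and 55.8% (wt) and 55.2% (menin-null) in PILECs. In mESCs the 3 unmarked genes held 0 to 4 tags. Their intervals over input reached 24.1-fold at G6pc2 and 15.9-fold at Slc30a8 in wt mESCs, and 6.20-fold at Slc2a2 in menin-null mESCs. Their calls there thus do not show that the mark was absent. The calls of Kcnj11 in wt mESCs and Pcsk1 in menin-null mESCs were lost with other windows. Within 2 kb of the TSS Kcnj11 stood at 0.59 (-0.41 to 1.56) over input on the log2 scale, and within 500 bp Pcsk1 stood at 2.09 (-0.06 to 8.39). The plot of H3K4me3 by gene and library gives all levels with their input.

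**Figure D1:**
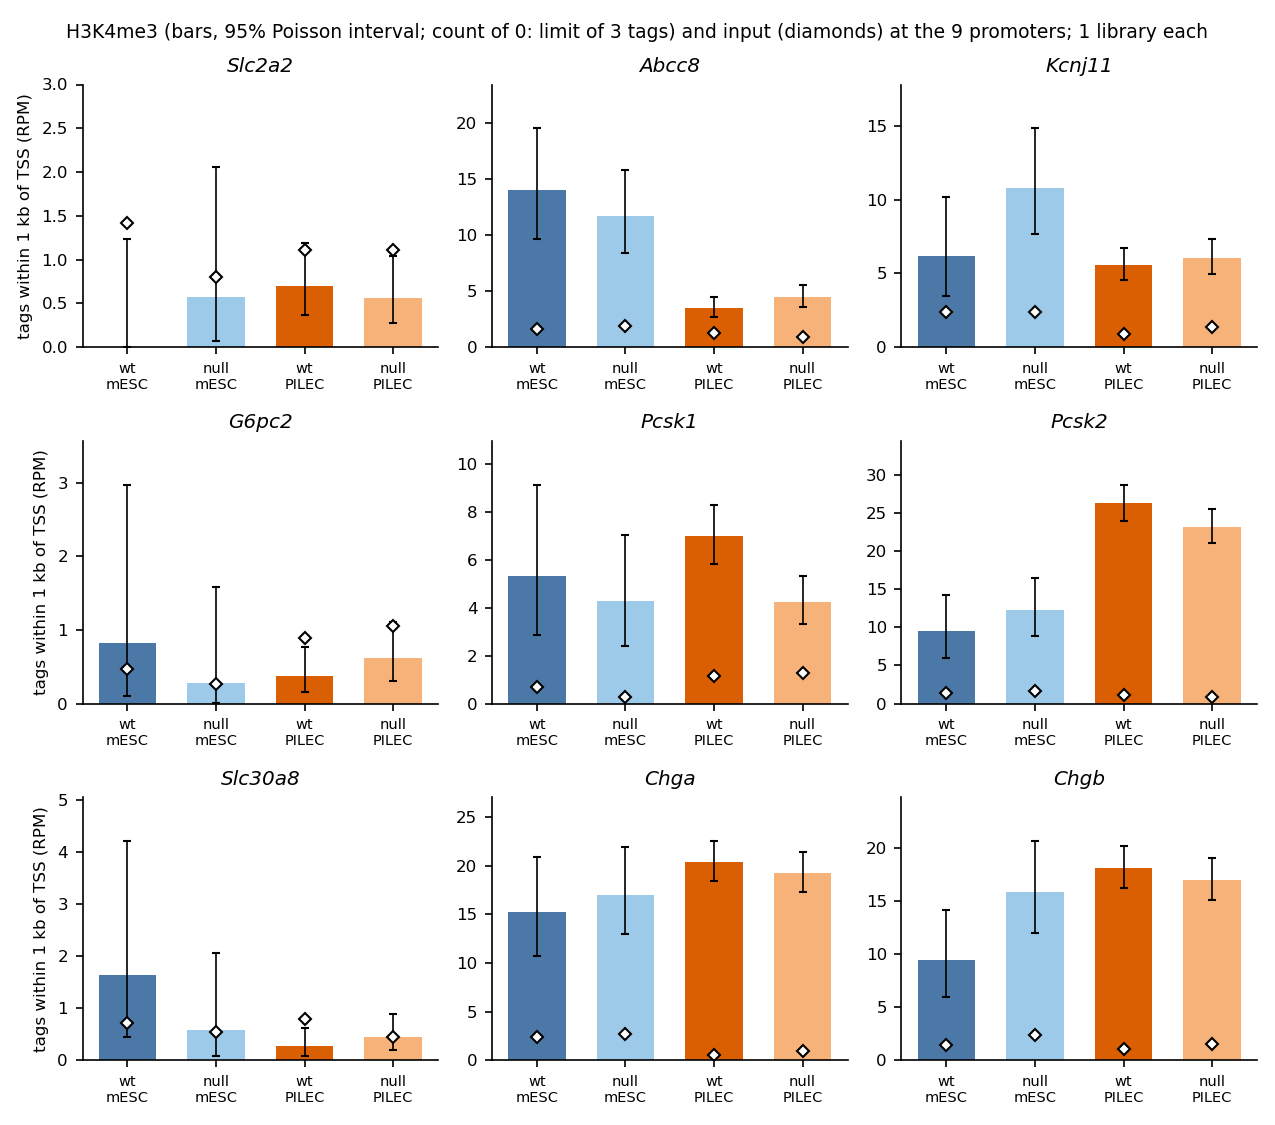
H3K4me3 within 1 kb of the TSS of each of the 9 genes in RPM (bars, 1 library each, error bars the 95% Poisson interval, or for the count of 0 the limit of 3 tags) and input in RPM (diamonds), with a separate y axis for each gene. Pcsk2 stood at 26.3 and 23.2 RPM in wt and menin-null PILECs and at 9.46 and 12.2 RPM in the mESCs, Abcc8 at 3.52 and 4.47 RPM in PILECs and at 14.0 and 11.7 RPM in mESCs, and the bars of Slc2a2, G6pc2 and Slc30a8 lie near their input.

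Among the genes of glucose sensing, the 2 subunits of the KATP channel were called marked and the glucose transporter was not. Abcc8, the sulfonylurea receptor (TSS chr7:53435403, − strand), held 34 and 41 tags in wt and menin-null mESCs (14.0 and 11.7 RPM), and 66 and 79 tags in wt and menin-null PILECs (3.52 and 4.47 RPM). Both mESC levels were above both PILEC levels, and the intervals of the mESCs (9.68 to 19.5 RPM in wt, 8.37 to 15.8 RPM in menin-null) did not overlap those of the PILECs (2.72 to 4.47 RPM and 3.54 to 5.57 RPM). Over input Abcc8 stood at 7.64- and 5.59-fold in wt and menin-null mESCs and at 2.83- and 4.82-fold in the PILECs, with intervals that all overlapped. Kcnj11, the pore of the channel (TSS chr7:53355607, − strand), held 15, 38, 104 and 107 tags in the same order, which is kept below, or 6.17, 10.8, 5.54 and 6.05 RPM. Menin-null mESCs were the highest, and the other 3 libraries lay within each other's intervals. Input at Kcnj11 was 2.35 and 2.40 RPM in wt and menin-null mESCs, so that the fold over input was 2.54 (interval 1.1 to 6.52) in wt mESCs, the lowest of any marked gene in any library.

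Slc2a2, the low-affinity glucose transporter (TSS chr3:28596939, + strand), held 0, 2, 13 and 10 tags. In PILECs these were 0.692 and 0.566 RPM, under the input of 21 and 20 tags in wt and menin-null cells, and the 0 tags of wt mESCs allow up to 1.23 RPM by the limit of 3 tags. G6pc2, an islet glucose-6-phosphatase that opposes glucokinase (TSS chr2:69058028, + strand), held 2, 1, 7 and 11 tags, or 0.822, 0.284, 0.373 and 0.622 RPM, with input at 0.894 RPM in wt PILECs and 1.05 RPM in menin-null PILECs. Neither gene was enriched at its TSS at this depth, where in PILECs the intervals of both reached at most 1.31-fold over input.

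Among the granule genes the chromogranins and convertases were called marked and the zinc transporter was not. Chga (TSS chr12:103793179, + strand) held 37, 60, 383 and 341 tags, or 15.2, 17.1, 20.4 and 19.3 RPM. In RPM the 4 levels were close, with intervals that overlapped between all libraries. Over input Chga stood at 6.03- and 5.90-fold in wt and menin-null mESCs and at 35.4- and 19.5-fold in the PILECs. Its input was 2.35 and 2.67 RPM in the mESCs and 0.526 and 0.938 RPM in the PILECs. Chgb (TSS chr2:132607014, + strand) held 23, 56, 341 and 301 tags, or 9.46, 15.9, 18.2 and 17.0 RPM. Wt mESCs were the low library here, with an interval of 5.99 to 14.2 RPM that ended below that of both PILECs.

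Pcsk2 (TSS chr2:143372007, + strand) held 23, 43, 493 and 410 tags, or 9.46, 12.2, 26.3 and 23.2 RPM, and both PILEC levels were above both mESC levels with no overlap of intervals. Pcsk1 (TSS chr13:75227364, + strand) held 13, 15, 131 and 75 tags, or 5.34, 4.26, 6.98 and 4.24 RPM. Its wt PILECs were the highest, with an interval of 5.83 to 8.28 RPM against 3.34 to 5.32 RPM in menin-null PILECs. Slc30a8, the zinc transporter of the granule (TSS chr15:52127108, + strand), held 4, 2, 5 and 8 tags, or 1.64, 0.569, 0.266 and 0.452 RPM, where input was 0.789 and 0.441 RPM in wt and menin-null PILECs.

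In wt PILECs, where the counts were largest, the order of levels was Pcsk2, Chga, Chgb, Pcsk1, Kcnj11, Abcc8, Slc2a2, G6pc2 and Slc30a8. Pcsk2 stood apart from Chga, Chgb from Pcsk1, and Abcc8 from both of its neighbours by intervals that did not overlap, while Chga and Chgb, Pcsk1 and Kcnj11, and the last 3 genes did not differ beyond their intervals. In wt mESCs the order began with Chga at 15.2 RPM and Abcc8 at 14.0 RPM, and the intervals of all 6 marked genes overlapped with those of their neighbours. The profile of the median of the 9 genes over the 4 libraries was most like those of Drd2, AW047730, Mak, Tbx20 and Cdc42ep5, at Euclidean distances of 0.12 to 0.335 in log2 RPM over 4 libraries.

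The marked and unmarked genes also differed in CpG content, which the choice of genes did not use. In the 2 kb around the TSS the observed over expected CpG ratio was 0.643 for Pcsk2, 0.602 for Abcc8, 0.552 for Kcnj11, 0.503 for Chgb, 0.464 for Pcsk1 and 0.409 for Chga. It was 0.263 for Slc2a2, 0.253 for G6pc2 and 0.184 for Slc30a8, and the median of all genes was 0.458. All 6 marked genes thus lay above all 3 unmarked ones. Over all genes the marked share rose along the same scale, from 1.06% to 1.30% in the 4 kinds of cells where the ratio was under 0.2, over 17.7% to 18.6% between 0.2 and 0.4 and 83.4% to 85.6% between 0.4 and 0.6, to 98.3% to 98.6% at 0.6 and over. Each of the 9 genes was on the side that most genes of its band were on.

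**Figure D2:**
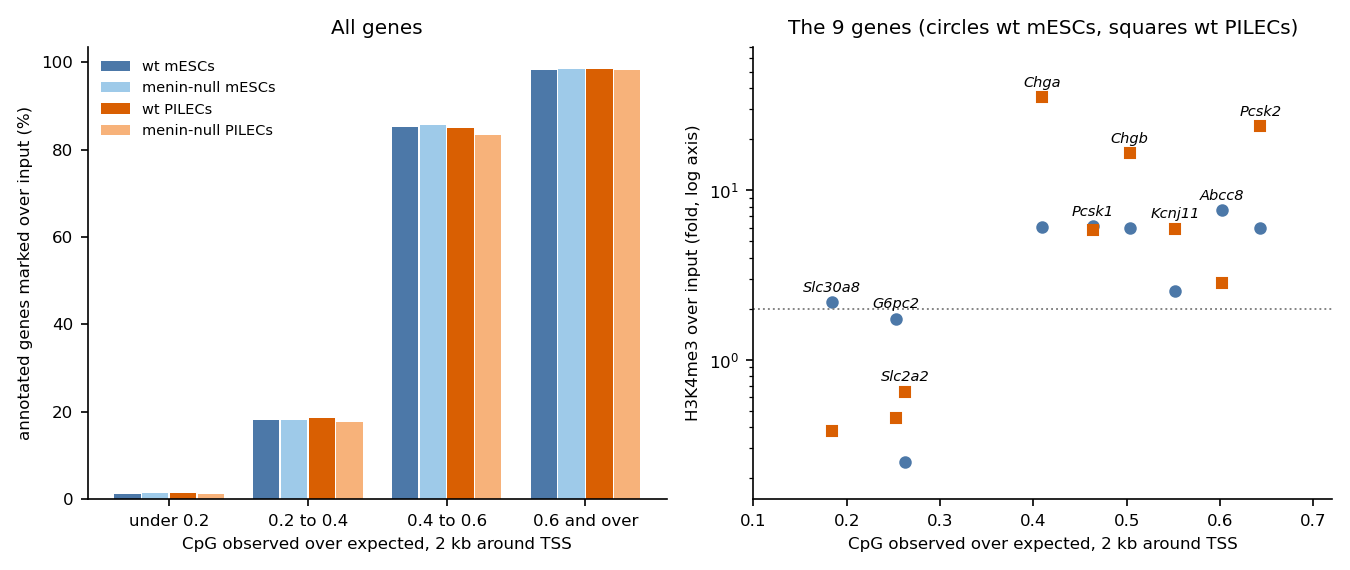
Left, percent of annotated genes marked over input (y axis) in 4 bands of the CpG observed over expected ratio of the 2 kb around the TSS (x axis), with 1 bar for each kind of cells. Right, H3K4me3 over input in fold on a log axis against the same ratio for the 9 genes, with circles for wt mESCs, squares for wt PILECs and a dotted line at 2-fold. The 3 genes under 0.4 lie at or near the line or under it, Slc30a8 in wt mESCs at 2.18-fold on 4 tags with an interval that includes 1, and the 6 genes over 0.4 lie above it.

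The mark lay to 1 side of several of these starts, and the CG dinucleotides lay to the same side at some of them. At Chgb 90.9% to 100% of the tags within 1 kb lay downstream of the TSS in the 4 libraries, and 53 of its 65 CG lay there (12 upstream), while the sequence shown above is all upstream. At Abcc8 77.3% to 88.2% of tags and 69 of 99 CG lay downstream. Kcnj11 was the other way round, with 7.89% to 26.7% of tags downstream and with 60 CG in the 1 kb upstream against 38 downstream. Its highest 200-bp bin lay between 600 and 200 bp upstream of the annotated start in every library. At Chga 67.6% to 81.8% of tags lay downstream while its CG were nearly even, 32 upstream and 37 downstream. Pcsk2 had 63 CG upstream and 38 downstream, with 13.0% and 37.2% of tags downstream in wt and menin-null mESCs but 56.2% and 54.9% in the PILECs. Its upstream side is shared with the gene C630020P19Rik, which starts on the other strand 294 bp upstream of the Pcsk2 start, at chr2:143371713, and again 1566 bp downstream, at chr2:143373573, and tags between these starts cannot be told apart.

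**Figure D3:**
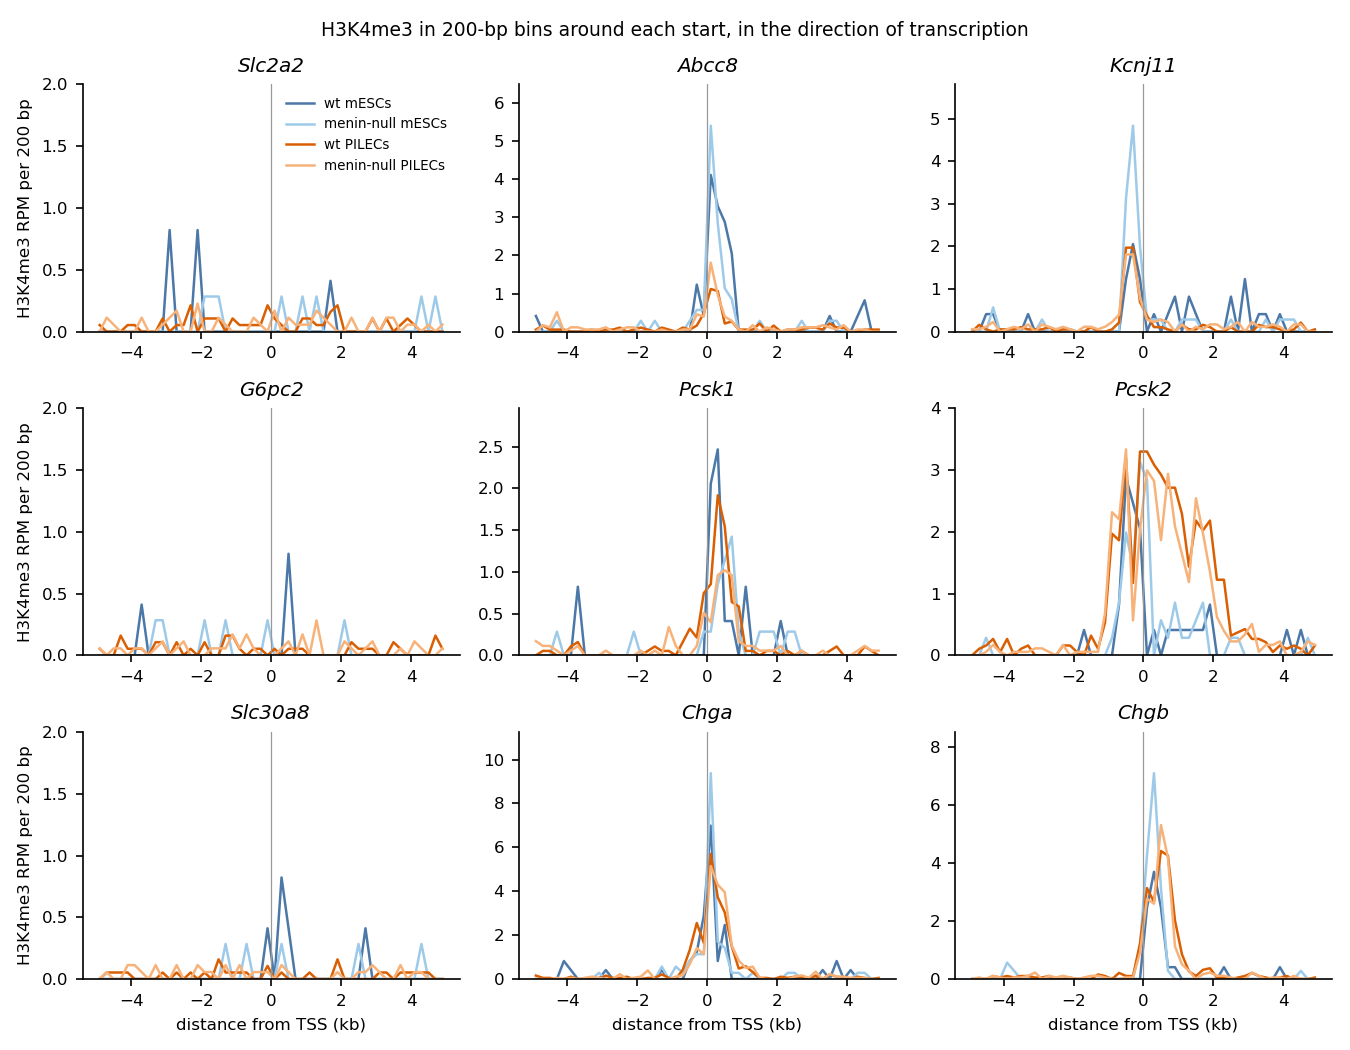
H3K4me3 in RPM per 200-bp bin (y axis) from 5 kb upstream to 5 kb downstream of each TSS (x axis, kb, in the direction of transcription) in the 4 H3K4me3 libraries, with a separate y axis for each gene. Tags at Chgb and Abcc8 lie to the right of the start and those at Kcnj11 to the left, the PILEC lines of Pcsk2 extend past 2 kb where those of mESCs do not, and no 200-bp bin of the 3 unmarked genes held more than 5 H3K4me3 tags.

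The search was widened for the unmarked genes to every 1-kb window, in steps of 100 bp, over the gene and 10 kb on each side. The highest window of Slc2a2 held 4, 3, 11 and 12 tags, and input held 4, 5, 12 and 12 tags in the same windows. That of Slc30a8 held 4, 3, 12 and 11 tags, with 2, 5, 8 and 4 input tags. Around G6pc2 the highest window held 66, 148, 412 and 290 tags, with its centre at -13998 to -14298 bp from the TSS, next to the start of the neighbour Spc25 13777 bp away. No window over Slc2a2 or Slc30a8 held more than 12 tags in any library.

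On differentiation of wt cells 1 of the 9 promoters gained and 1 lost H3K4me3 2-fold or more, of 7 with at least 10 tags in the libraries compared. Of all 21261 genes tested 6.66% were 2-fold higher and 20.4% 2-fold lower in wt PILECs than in wt mESCs, and their median log2 ratio was -0.14. The ratios carry 1 tag added to each count and are not set against input. Of input tags 7.57% lay within 1 kb of a TSS in wt mESCs and 4.73% in wt PILECs. Pcsk2 was higher, by 1.42 on the log2 scale (interval 0.87 to 2.14), and Abcc8 was lower, at -2.01 (-2.61 to -1.35). The window of Pcsk2 also holds the start of C630020P19Rik 294 bp away, whose own window stood at 1.27 (0.72 to 2.02). Tags there cannot be assigned to either gene. Within 500 bp of its TSS Pcsk2 stood at 0.94 (0.31 to 1.82), under 2-fold, so that 0 of the 9 were higher there. Chgb stood at 0.88 (0.33 to 1.62), under 2-fold, with an interval above 0 as in 18.8% of all genes, but at 0.04 within 500 bp of its TSS. Chga at 0.39 (-0.07 to 0.95), Pcsk1 at 0.29 (-0.44 to 1.33) and Kcnj11 at -0.23 (-0.94 to 0.73) had intervals that included 0. Of the KATP channel subunits, Abcc8 thus had an interval that ended below that of Kcnj11. For Slc2a2, at 0 tags in wt mESCs, no fold is given because its PILEC level was under what 0 tags allow. The median of the 7 genes was 0.39, or 0.29 with Slc2a2 at its bound.

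**Figure D4:**
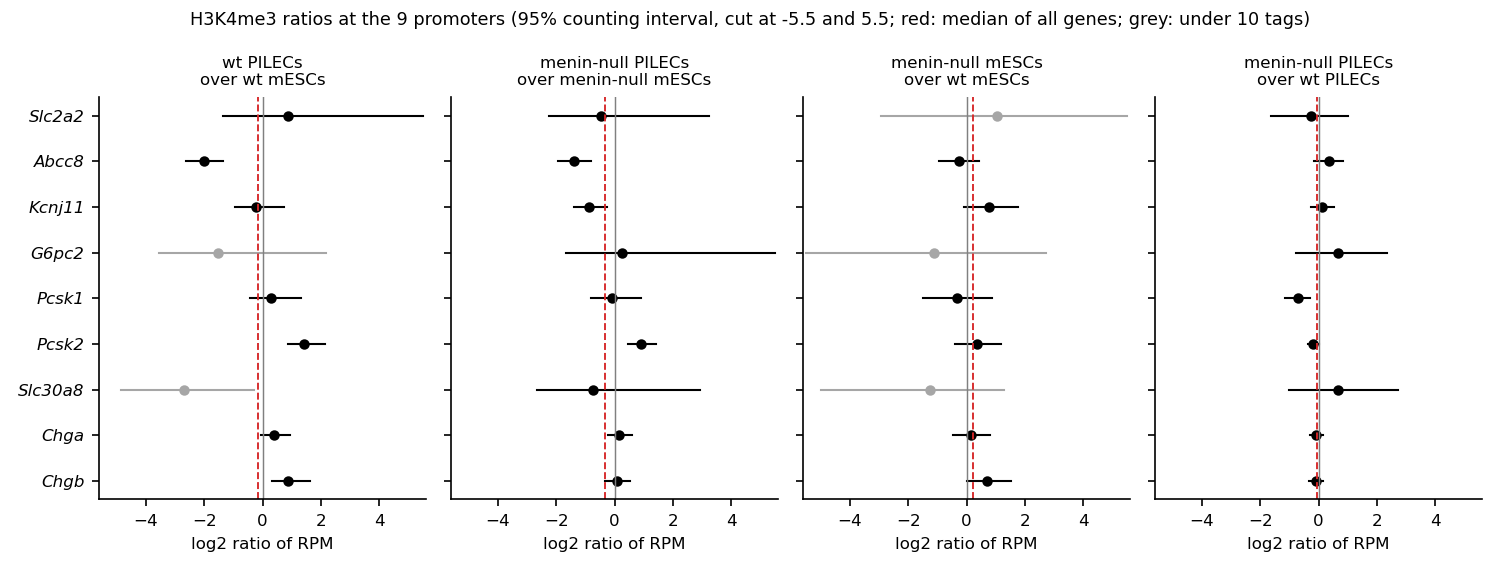
Log2 ratio of H3K4me3 RPM (x axis) at the 9 promoters in 4 comparisons, with 1 tag added, lines for the 95% counting interval, a dashed red line for the median of all genes and grey for genes under 10 tags. Abcc8 lies left of 0 in both comparisons of PILECs with mESCs (-2.01 and -1.40) and Pcsk2 right of it (1.42 and 0.89), and in the comparison of menin-null with wt PILECs the interval of Pcsk1 alone leaves 0.

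In menin-null cells the same comparison had 9 genes with at least 10 tags in both libraries together, of which 0 were 2-fold higher and 1 was 2-fold lower, where 7.82% and 22.7% of 21641 genes were, with a median of -0.33. Abcc8 was lower again, at -1.40 (-1.95 to -0.80). Pcsk2 stood at 0.89 (0.47 to 1.41), with an interval above 0 as in 12.2% of genes. It stood at 0.22 (-0.29 to 0.84) within 500 bp of its TSS but past 2-fold, at 1.18, within 2 kb. It was also past 2-fold when scaled by tags within 1 kb of any TSS (1.25) or with the median of all genes set to 0 (1.22). Kcnj11 stood at -0.86 (-1.38 to -0.26), with an interval below 0 as in 39.1% of genes. On the same scales Kcnj11 stood at -0.50 and -0.53, so that its interval below 0 depended on the scale. Here the intervals of Abcc8 and Kcnj11 overlapped. Chga at 0.16 (-0.22 to 0.60), Chgb at 0.08 (-0.32 to 0.53) and Pcsk1 at -0.08 (-0.82 to 0.90) included 0, and the median of the 9 was -0.08. The comparisons of stage and of genotype share libraries, 1 in each pair.

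In PILECs more of the tags also lay away from some of these starts, which was looked at once the profiles had been seen. Tags within 500 bp of the TSS were separated from those between 500 bp and 2 kb, here called the flank. At Chgb the flank held 2 tags in both mESC libraries and 208 and 167 tags in wt and menin-null PILECs, or 0.822, 0.569, 11.1 and 9.44 RPM. Within 500 bp it held 21, 54, 174 and 161 tags, or 8.63, 15.4, 9.27 and 9.10 RPM. Thus the flank was high in both PILECs and all but empty in both mESCs, while the inner part was highest in menin-null mESCs. The flank of wt PILECs over wt mESCs stood at 3.17 on the log2 scale (1.88 to 6.81) and the inner part at 0.04 (-0.55 to 0.83), and in menin-null cells at 3.48 (2.18 to 7.11) and -0.77 (-1.21 to -0.28). The share of the tags within 2 kb that lay in the flank was 8.70% (interval 1.07% to 28.0%) and 3.57% (0.435% to 12.3%) in wt and menin-null mESCs, and 54.5% (49.3% to 59.5%) and 50.9% (45.4% to 56.4%) in wt and menin-null PILECs.

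At Pcsk2 the flank held 13, 18, 437 and 388 tags, or 5.34, 5.12, 23.3 and 21.9 RPM, and the inner part 17, 32, 265 and 192 tags, or 6.99, 9.10, 14.1 and 10.9 RPM. Its flank was higher in PILECs by 2.02 in wt (1.33 to 3.04) and 2.03 in menin-null cells (1.42 to 2.87), and part of it lies at the downstream start of C630020P19Rik. At Chga the flank held 2, 13, 103 and 101 tags, or 0.822, 3.70, 5.49 and 5.71 RPM, and was higher by 2.17 in wt (0.85 to 5.80) but stood at 0.54 (-0.21 to 1.59) in menin-null cells. So 3 of 9 flanks were 2-fold higher in wt PILECs and 2 of them in menin-null PILECs, where of all genes 15.5% and 15% were. The flank of Abcc8, at 9, 8, 25 and 18 tags, was 2-fold lower in both, at -1.57 (-2.62 to -0.19) in wt and -1.25 (-2.43 to 0.25) in menin-null cells. That of the unmarked Slc2a2, at 1, 5, 24 and 14 tags, was also past 2-fold in menin-null cells, at -1.01 (-2.40 to 0.98). Of all genes 17.9% and 15.5% were lower by that rule in wt and menin-null cells. No flank was set against its input. Within 1 kb of the Abcc8 start input held 7, 7, 23 and 16 tags, and the part of background in its flank ratios was not tested.

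The change of the flank was also set against the change of the inner part. The flank rose more than the inner part at Chgb by 3.36 on the log2 scale (1.45 to 5.27) in wt and 4.50 (2.64 to 6.35) in menin-null cells, and at Pcsk2 by 1.095 (0.05 to 2.14) and 1.83 (0.97 to 2.69). Chga had 2.30 (0.43 to 4.18) in wt cells and 0.49 (-0.43 to 1.42) in menin-null cells, and Kcnj11 -0.56 (-2.05 to 0.93) and 1.71 (0.40 to 3.03). Over all genes with enough tags in both parts the median was 0.42 in wt and 0.49 in menin-null cells. The interval lay above 0 in 27.5% and 35.3%, so a flank that rose more than the inner part was not particular to these genes. The share with an interval below 0 was not counted. The part of background and of fragment length in these values was not tested. The flank share was taken over 13982 genes with at least 20 tags in each library. Its medians were 29.7% and 27.3% in wt and menin-null mESCs and 36.6% and 35.7% in wt and menin-null PILECs. At Kcnj11 the flank held 6, 6, 30 and 46 tags, where input within 1 kb held 10, 9, 17 and 24 tags. The part of background in its values was not tested.

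The last pair of comparisons set menin-null against wt cells at each stage. In mESCs 6 of the 9 genes had at least 10 tags and 0 were 2-fold higher or lower, where 1.27% and 2.06% of 16178 genes were, with a median of 0.21. Chgb stood at 0.72 (0.03 to 1.52), with an interval above 0 as in 24.3% of genes, and 2.07% had one below 0. Scaled by tags within 1 kb of any TSS Chgb stood at 0.48, and with the median of all genes set to 0 at 0.50. Its interval above 0 thus depended on the scale. Kcnj11 at 0.75 (-0.09 to 1.78), Pcsk2 at 0.34 (-0.39 to 1.17), Chga at 0.15 (-0.45 to 0.80), Abcc8 at -0.27 (-0.95 to 0.44) and Pcsk1 at -0.34 (-1.497 to 0.87) had intervals that included 0. A 2-fold difference was within the intervals of Chgb, Kcnj11, Pcsk2 and Pcsk1. Input over 50 kb on each side of Abcc8 was itself lower in menin-null mESCs, at -0.26 (-0.52 to -0.02), and its part in the value of Abcc8 was not tested.

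In PILECs all 9 genes had at least 10 tags in both libraries together and 0 were 2-fold higher or lower, where 3.22% and 2.45% of 24040 genes were, with a median of -0.06. Pcsk1 was the 1 gene with an interval off 0, at -0.71 (-1.15 to -0.30), or 131 tags in wt against 75 in menin-null PILECs, and intervals lay below 0 for 20.1% of genes and above 0 for 5.08%. Within 500 bp of its TSS 89 tags in wt and 41 in menin-null PILECs gave -1.01 (-1.60 to -0.48), and in the flank 51 and 49 tags gave 0.03 (-0.57 to 0.62). The log2 ratio of the flank was above that of the inner part by 1.05 (0.28 to 1.83). Of all genes 6.77% had an interval above 0. The flank was not set against input, which held 22 and 23 tags within 1 kb in wt and menin-null PILECs. The part of background in the flank ratio was not tested. Pcsk2 at -0.18 (-0.37 to 0.01), Chga at -0.08 (-0.30 to 0.13), Chgb at -0.09 (-0.32 to 0.13), Kcnj11 at 0.13 (-0.28 to 0.53) and Abcc8 at 0.34 (-0.14 to 0.84) had intervals that included 0. These intervals ended short of a 2-fold difference, but they hold counting error alone and not the spread between cultures. Within 500 bp Pcsk2 was at -0.38 (-0.65 to -0.11). Slc2a2, G6pc2 and Slc30a8 lay near input in both, and their 5 to 13 tags per library were too few to show a difference, so the count rests on the 6 marked genes. Input within 50 kb of Pcsk1 was at -0.08 (-0.24 to 0.08) in PILECs, and that of Kcnj11 at 0.16 (0.02 to 0.30), whose part in the value of Kcnj11 was not tested.

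The genotype ratio was compared between the stages directly. Chgb had a lower menin-null over wt ratio in PILECs than in mESCs by -0.83 on the log2 scale (-1.56 to -0.10), the 1 gene of the 6 with enough tags that had an interval off 0. The median of all genes was itself -0.32 and 32.5% of genes had an interval below 0 against 1.9% above it, and with that median set to 0 the value was -0.51 with an interval that included 0. The others stood between -0.65 (Kcnj11) and 0.61 (Abcc8, -0.19 to 1.41). Abcc8 then became the 1 gene with an interval off 0, at 0.93 (0.12 to 1.73), so that the gene called turned on the scale.

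The other genes of the pathway, taken from lists chosen by function, were counted in the same comparison of wt PILECs with wt mESCs. Of 12 genes of hormone processing and granule cargo 4 were 2-fold higher and 0 lower, where 6.66% and 20.4% of all genes were, with a median of 0.41 against -0.14 over all genes. In menin-null cells 3 of the 12 were higher and 0 lower, where 7.82% and 22.7% of all genes were, with a median of 0.09 against -0.33. Scg2, secretogranin II, was at 0 and 91 tags in wt mESCs and PILECs, 3.93-fold higher in the latter with the count of 0 set to its limit of 3 tags. In menin-null cells it was at 0 and 85 tags, 5.64-fold higher by the same limit. These folds are 1.97 and 2.49 on the log2 scale, and the exact 95% interval of the same ratios began lower, at 1.65 and 2.16. In wt cells Scg5, a chaperone of PC2, was at 3 and 319 tags (3.37, interval 2.22 to 6.07), Scg3 at 10 and 366 tags (2.11, 1.35 to 3.32) and Cpe, the carboxypeptidase that trims cut hormones, at 44 and 732 tags (1.08, 0.67 to 1.58). In menin-null cells Scg5 stood at 1.58, Scg3 at 2.40 and Cpe at 0.41. The lowest of this list in wt cells were Slc30a5 at -0.54 (-0.79 to -0.27) and Ptprn at -0.52 (-0.97 to 0.02).

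**Figure D5:**
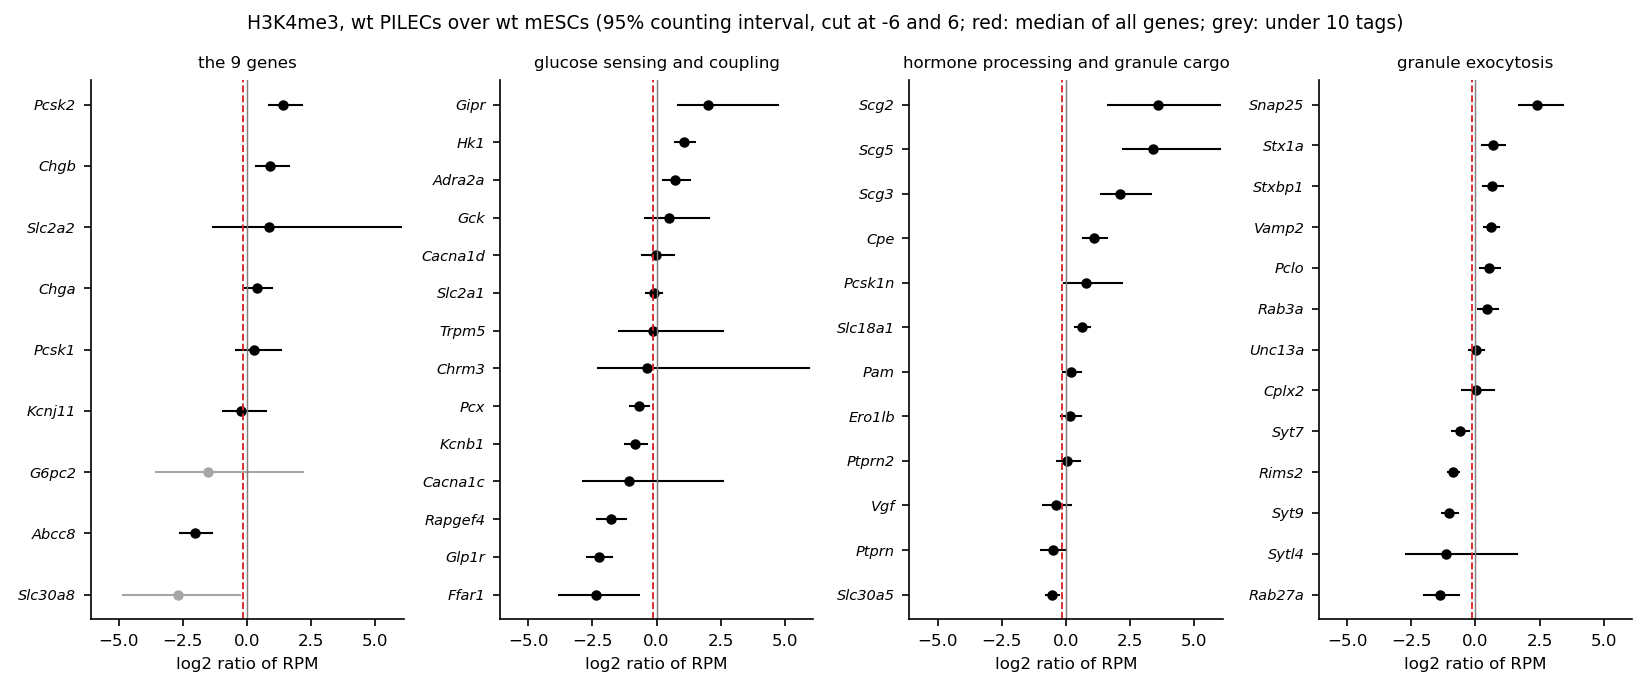
Log2 ratio of H3K4me3 RPM in wt PILECs over wt mESCs (x axis, 1 tag added, lines for the 95% counting interval) for the 9 genes and for lists of glucose sensing and coupling, hormone processing and granule cargo, and granule exocytosis, with the median of all genes (-0.14) as a dashed red line and genes under 10 tags in grey. Scg2, at 0 tags in wt mESCs, is drawn at the value that the added tag gives; the other values of granule cargo lie between -0.54 and 3.37 and those of glucose sensing between -2.36 and 2.02.

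Of 14 genes of glucose sensing and coupling 2 were 2-fold higher and 4 lower, where 6.66% and 20.4% of all genes were, with a median of -0.25. The incretin receptors stood on opposite sides of 0, with Gipr at 3 and 124 tags (2.02, 0.84 to 4.72) and Glp1r at 57 and 94 tags (-2.24, -2.72 to -1.73). Hk1, a hexokinase of high affinity, was at 1.07 (0.73 to 1.48), and Ffar1, a fatty acid receptor, at -2.36 (-3.79 to -0.69). Ffar1 was marked in none of the 4 kinds of cells, with 7 and 11 tags in wt mESCs and PILECs against 6 and 13 of input, and neither was Cacna1c, another of the 4 lower. Of 13 genes of granule exocytosis 1 was higher and 3 lower, again beside 6.66% and 20.4% of all genes, with a median of 0.03. Snap25, a SNARE protein of neurons and endocrine cells, was at 13 and 563 tags (2.38, 1.70 to 3.41), Stx1a at 0.67 (0.26 to 1.16), Rab27a at -1.38 (-2.01 to -0.63) and Sytl4, unmarked in wt cells of either stage, at -1.14 (-2.70 to 1.62). Close relatives of the 9 genes counted 1 higher and 5 lower of 20, beside the same shares, with a median of -0.04. In menin-null cells, beside 7.82% and 22.7% of all genes, the sensing list counted 1 higher and 4 lower, the exocytosis list 1 and 4, and the relatives 0 and 6. In menin-null over wt PILECs 0 genes of these 4 lists were 2-fold higher or lower, where 3.22% and 2.45% of all genes were.

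Genes that mark other cells were read beside these. All 9 neural genes placed were marked in both PILECs, against 8 in each mESC library. Of all genes 55.2% to 55.8% were marked in each kind of cells. The summed level of the neural genes was 204 RPM in wt and 188 RPM in menin-null PILECs against 139 and 183 RPM in wt and menin-null mESCs. Their median log2 ratios were 0.85 in wt and 0.09 in menin-null cells, against -0.14 and -0.33 over all genes. In wt cells 3 of the 9 were 2-fold higher and 1 lower, beside 6.66% and 20.4% of all genes. In menin-null cells 2 were higher and 1 lower, beside 7.82% and 22.7%. Of 9 fibroblast genes 7 were marked in wt and 8 in menin-null PILECs, against 4 in each mESC library. Their median log2 ratio of PILECs over mESCs was 0.58 in wt cells, with 3 of 9 2-fold higher and 1 lower. In menin-null cells it was 1.4996, with 4 of 8 higher and 1 lower. Of all genes 6.66% and 20.4% were higher and lower in wt and 7.82% and 22.7% in menin-null cells. Col3a1, Dcn and Postn were at 0 tags in menin-null mESCs, so the median of menin-null cells depends on the added tag. In menin-null over wt PILECs the median of the 9 was -0.34, against -0.06 over all genes. There 5 intervals lay below 0 and 1 above, where 20.1% and 5.08% of all genes had such intervals. The summed level was 65.3 RPM in menin-null and 79.5 RPM in wt PILECs. Of 8 pluripotency genes 8 were marked in both mESCs and 3 in each kind of PILECs, with median log2 ratios of PILECs over mESCs of -4.16 in wt and -4.44 in menin-null cells. Of 7 exocrine genes 1, Ptf1a, was marked in each of the 4 kinds of cells, and of 8 liver genes and 7 muscle genes 0 were marked in PILECs. The part of other cell types in the values of the chromogranins and convertases was not tested. The promoters of Gapdh and Actb, used by most cells, stood at -0.21 (-0.42 to 0.02) and 0.11 (-0.11 to 0.35) in wt PILECs over wt mESCs.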

How the data were processed

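H3K4me3 and input libraries of 4 kinds of cells, 1 each, were taken as deposited. Reads of 36 bp were aligned by the authors to mm9 and kept where unique, stated as with at most 2 mismatches. They deposited 1 line per tag, so values are unnormalized positions (1.04% to 1.81% of tags listed over 2 mismatches and were kept). A whole-number score deposited beside each position is not named in the methods and was not used.

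Each 5′ end was moved 125 bp, to the middle of a 250-bp fragment, and tags were counted within 1 kb of the GENCODE vM1 TSS (of 75543 starts of 26225 genes, for each gene the one with the most H3K4me3), divided by total tags and multiplied by 1000000. Ratios had 1 tag added and exact conditional binomial (Clopper-Pearson) 95% intervals, and genes with at least 10 tags in the libraries compared were read at 2-fold. Differences of ratios had Poisson (Wald) intervals with 0.5 tags added. Intervals, and the limit of 3 tags for a count of 0, cover counting error only. Tags that repeat a position and strand were kept. They were 11.4% of H3K4me3 tags in wt mESCs and 4.17% in menin-null mESCs. In wt and menin-null PILECs they were 11.5% and 11.4%. Python 3.11.15, numpy 2.4.6, pandas 2.3.3, scipy 1.17.1 and matplotlib 3.10.9 were used, and the scripts were tested on simulated data.

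All 9 genes, Men1, Gapdh, Actb, the 5 most similar profiles and the 2 highest and 2 lowest of 3 lists were named by rule. Scg3, Cpe, Spc25, C630020P19Rik, Ptf1a, Pdx1, Pax4, Cacna1c, Col3a1, Dcn and Postn, and the split at 500 bp, were chosen after their values were seen. The members, lists and settings were chosen with earlier results of these data known. Alternatives changed the window, duplicates, tag position, scaling, tags added, start, mismatches, input, minimum and fold. The expression arrays were not used here.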

Additional observations from a re-analysis of the deposited data

Results flagged for a closer look

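The menin-null over wt ratio of H3K4me3 at Chgb differed between the stages by -0.83 on the log2 scale (interval -1.56 to -0.10), which came from an interaction of genotype and stage over the 4 H3K4me3 libraries with counting error alone. Counts were 23 and 56 tags in wt and menin-null mESCs and 341 and 301 in wt and menin-null PILECs. The 23 tags of wt mESCs are the smallest count. Within 500 bp of the TSS menin-null mESCs stood at 15.4 RPM, against 8.63 RPM in wt mESCs and 9.27 and 9.10 RPM in wt and menin-null PILECs. There the difference was -0.84 (-1.62 to -0.05). Within 1 kb, with tags at the same position and strand counted once, the difference was -0.75 (-1.49 to -0.0004). With tags near the TSS as the scale it was -0.50, and with the median of all genes set to 0 it was -0.51. Both of these intervals included 0. The interval of Abcc8, at 0.61 as reported, then lay above 0, at 0.94 and 0.93. The cause was not tested.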

How the results depend on the processing

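The 9 genes have 36 log2 ratios, which 10 alternatives can move, while 4 change only the minimum or the fold and 1 only the fold over input. No called ratio changed sign, and 36 of 36 stayed within the interval of the reported value in 8 of the 10, 31 with 500 bp on each side of the TSS (where Chgb in menin-null PILECs over mESCs turned from 0.08 to -0.77) and 32 with input subtracted. Over the 10 Abcc8 stayed between -2.43 and -1.72 in wt and between -1.47 and -1.04 in menin-null PILECs over mESCs, Pcsk2 in wt between 0.94 and 1.58 but in menin-null cells between 0.22 (at 500 bp) and 1.25, Chgb in wt between 0.04 (at 500 bp) and 1.05, and Pcsk1 in menin-null over wt PILECs between -1.01 and -0.55. The 6 marked genes were 5 in some settings. Kcnj11 was lost in wt mESCs at 2 kb, without moving the tags and at a fold of 3 over input, Pcsk1 in menin-null mESCs at 500 bp, and Abcc8 in wt PILECs at a fold of 3 over input.

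Counts of genes past the fold are small and moved more. In wt PILECs over mESCs those higher, 1 as reported, were 0 at 500 bp and at a fold of 3, 2 with 0.5 tags added or input subtracted, and 3 at 2 kb, at a fold of 1.5 or with the median set to 0. The counts of 2 and 3, except with input subtracted, include the unmarked Slc2a2, for which no fold is given above, and the other gene added is Chgb. Those lower, 1 as reported, were 2 at 2 kb or without moving the tags and 3 with no minimum, and each gene added (Slc30a8, G6pc2) is unmarked. In menin-null PILECs over mESCs those higher, 0 as reported, were 1 at 2 kb, with TSS scaling, with the median set to 0, from the 5′-most start (unmarked G6pc2, in the others Pcsk2), with input subtracted and at a fold of 1.5. Those lower, 1 as reported, were 2 at 500 bp, 3 at a fold of 1.5 and 0 at a fold of 3. In menin-null over wt mESCs, 0 and 0 as reported, higher were 1 with input subtracted or no minimum and 2 at a fold of 1.5, and lower 1 at 500 bp (Pcsk1) and 2 with no minimum, where all 3 are unmarked. In menin-null over wt PILECs lower were 1 at 500 bp (Pcsk1), and 2 (unmarked) were higher and 1 lower at a fold of 1.5. Members whose genotype ratio differed between stages, 1 as reported (Chgb), were 2 at 500 bp (Chgb and Kcnj11), and the 1 was Abcc8 in place of Chgb with TSS scaling (0.94) or the median set to 0 (0.93). The setting of 500 bp leaves out the flank described above. The cause of the moves was not tested in any setting.

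No paired analysis was run. Each condition had 1 library, so no library was left out. The mESC libraries, at 2432377 and 3517028 tags, limit the genotype comparison in mESCs and the counts of the unmarked genes.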
